A study of Mus musculus with 21 samples.

Results

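Ribosome biogenesis is the making of ribosomes in the nucleolus: RNA polymerase I transcribes the ribosomal RNA precursor, small nucleolar ribonucleoproteins (snoRNPs) modify it, and processing factors cut and fold it into the small and the large subunit. MYC and MYCN are transcription factors long known to raise many genes of this pathway, together with enzymes of polyamine and pyrimidine synthesis, as cells grow, and large cycling B-cell precursors are known for high output of it. The genes described here are 41 such ribosome biogenesis and MYC growth target genes, followed across mouse B-lineage cells. They were taken by name, through the gene symbols of the array's platform annotation. All 41 were on the array, with 83 probe sets, out of 18193 named genes and 45101 probe sets, and 26 of the 41 had more than 1 probe set.

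The data were Affymetrix microarray signals from 21 arrays in 7 groups of 3. Marrow made up 4 groups, each of cells sorted by the B-lineage surface marker B220: from wild-type mice, from mice with a Cebpb LAP transgene (LAP is the longer, activating form of C/EBPβ, a transcription factor), from mice labelled Blnk KO (BLNK is the adaptor through which pre-B cell receptor signals reach downstream enzymes), and from mice with both labels. The other 3 groups were LB31, a single line of pre-B acute lymphoblastic leukaemia from a Blnk KO mouse, grown with 5 ng/ml of interleukin 7, so every LB31 group shares that origin. LB31 carried a pMY retroviral vector that was empty, held Blnk cDNA (BLNK), or held a loss-of-function Blnk mutant (YF). Ages of the mice, the promoter of the transgene and whether replicates were separate animals or cultures are not stated in the sources at hand. The p-values thus measure the spread between these arrays, which may be technical.

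The probe sets for the engineered genes followed the labels in part. The brightest Cebpb probe set was at 5.43 and 5.02 (mean normalized log2 signal) in wild-type and knockout-labelled marrow against 10.05 and 9.90 in the 2 LAP groups, and at 10.09 to 10.22 in LB31. The other Cebpb probe set was at 7.28 and 7.04 in wild-type and knockout-labelled marrow against 8.31 and 7.20 in the LAP groups. In LB31 it was at 4.62 to 5.02. The single Blnk probe set did not follow the knockout label, at 12.44 in wild-type and 12.37 in knockout-labelled marrow, and was lower in LB31 with BLNK (8.56) than with the empty vector (9.63). No source at hand says whether it lies outside the deleted or transduced part, so the marrow groups are called knockout-labelled throughout. The median deposited signal of an array ran from 15.3 to 31.5, replicates correlated at 0.964 to 0.977 over all genes, and the signal of the 3′ over the 5′ Gapdh control probes ran from 0.691 to 1.04. On LAP transgenic array 3, the summed neutrophil markers stood apart, at a mean of 12.13 against 9.97 to 10.63 on the wild-type and remaining LAP transgenic arrays.

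Levels are log2 of the signal plus 4 after quantile normalization, so a difference of 1 is a doubling and folds of dim genes are understated. A gene is called where its adjusted p was under 0.05 in limma, with Benjamini-Hochberg adjustment over all genes of the fit. All 41 genes passed the filter on low values in every fit. The genes spanned a wide range of signal in each group: in knockout-labelled marrow from 4.52 (Rrp9) to 12.63 (Npm1) with a median of 8.34, and in LB31 with the empty vector from 7.32 (Polr1a) to 13.12 (Npm1) with a median of 9.95. The heat map of levels shows this on every array.

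**Figure D1:**
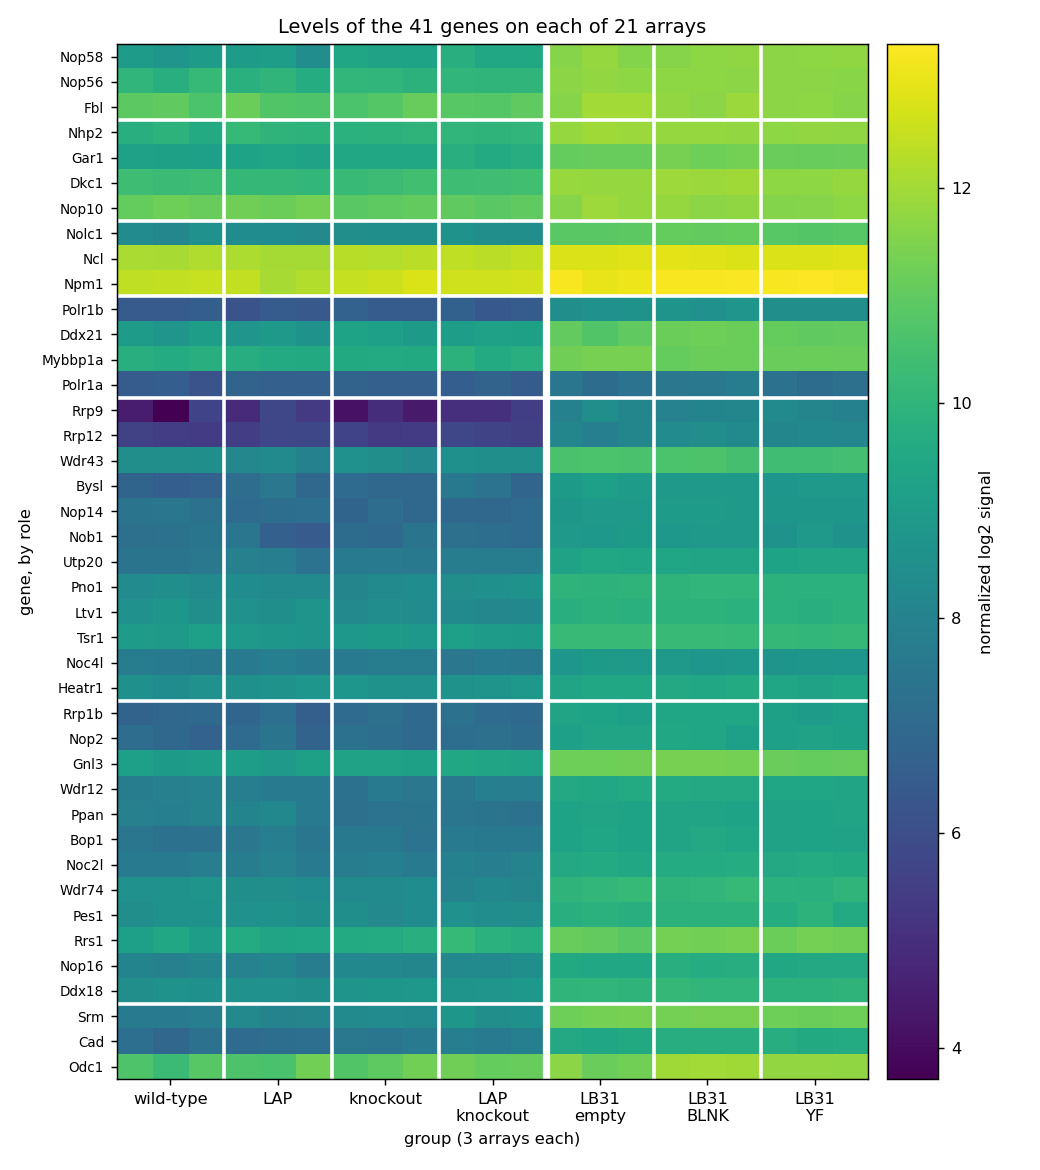
Normalized log2 signal (colour) of the 41 genes (rows, by role, white lines between roles) on each of the 21 arrays (columns, 3 per group, all normalized together). The 9 LB31 columns are brighter than the 12 marrow columns for 40 of the 41 genes, all but Odc1, and columns within marrow or within LB31 differ little.

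The mean of the 41 levels on an array lay between 8.41 and 8.66 on the 12 marrow arrays and between 10.15 and 10.28 on the 9 LB31 arrays. For 40 of the 41 genes, every LB31 array was above every marrow array, as it was for 18.8% of the 14653 genes of that fit, and Odc1 was the exception. Within marrow, the 4 group means of a gene differed by 0.05 (Fbl) to 0.87 (Srm), with a median of 0.30. Within LB31 the 3 group means differed by 0.01 (Ppan) to 0.60 (Odc1), with a median of 0.16. The step from the highest marrow group mean to the lowest LB31 group mean was larger, from 0.24 (Odc1) to 2.71 (Rrp9) with a median of 1.41.

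The leukaemia line was set against both knockout-labelled marrows, and nearly the whole list was higher in it than in either. By the brightest Cebpb probe set LB31 sits with the LAP groups, but by the other it lies below every marrow group. Neither knockout-labelled marrow is thus shown to be the match of LB31. In LB31 with the empty vector, 40 of the 41 genes were higher than in knockout-labelled marrow and none was lower, where 59.4% of the 14653 genes tested were called, 29.4% higher and 29.9% lower. The median change of the 41 was 1.74 on the log2 scale (3.34-fold), against 0.06 over all genes, and 35 rose at least 2-fold (14.1% of all genes did) and 11 at least 4-fold (2.85% of all genes did). Against LAP knockout-labelled marrow, with the same LB31 arrays, 40 were higher and none was lower, with a median of 1.70, where 58.8% of all genes were called, 28.4% higher and 30.4% lower. There 34 rose at least 2-fold (13.3% of all genes did) and 9 at least 4-fold (2.44%).

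The line differs from sorted marrow in culture, in transformation and in purity, and these cannot be told apart from each other here; nor can fewer cells of a type be told from less RNA per cell. All 8 neutrophil, 6 monocyte and macrophage and 4 megakaryocyte markers tested were lower in LB31 than in either knockout-labelled marrow. Mature B-cell markers were lower in 5 of 5 against knockout-labelled and 4 of 5 against LAP knockout-labelled marrow. Of 5 B-lineage markers, 4 were lower and 1 higher against knockout-labelled marrow, and 3 lower and 1 higher against LAP knockout-labelled marrow. Of 6 pre-B markers, 3 were lower against knockout-labelled and 6 against LAP knockout-labelled marrow. The mean level of the neutrophil list was 9.79 to 10.88 on the knockout-labelled arrays and 3.58 to 3.87 in LB31 with the empty vector. The mean 3′ to 5′ Gapdh ratio was 0.711 to 0.740 in the LB31 groups and 0.786 to 0.969 in the marrow groups. The part of these in the result was not tested.

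**Figure D2:**
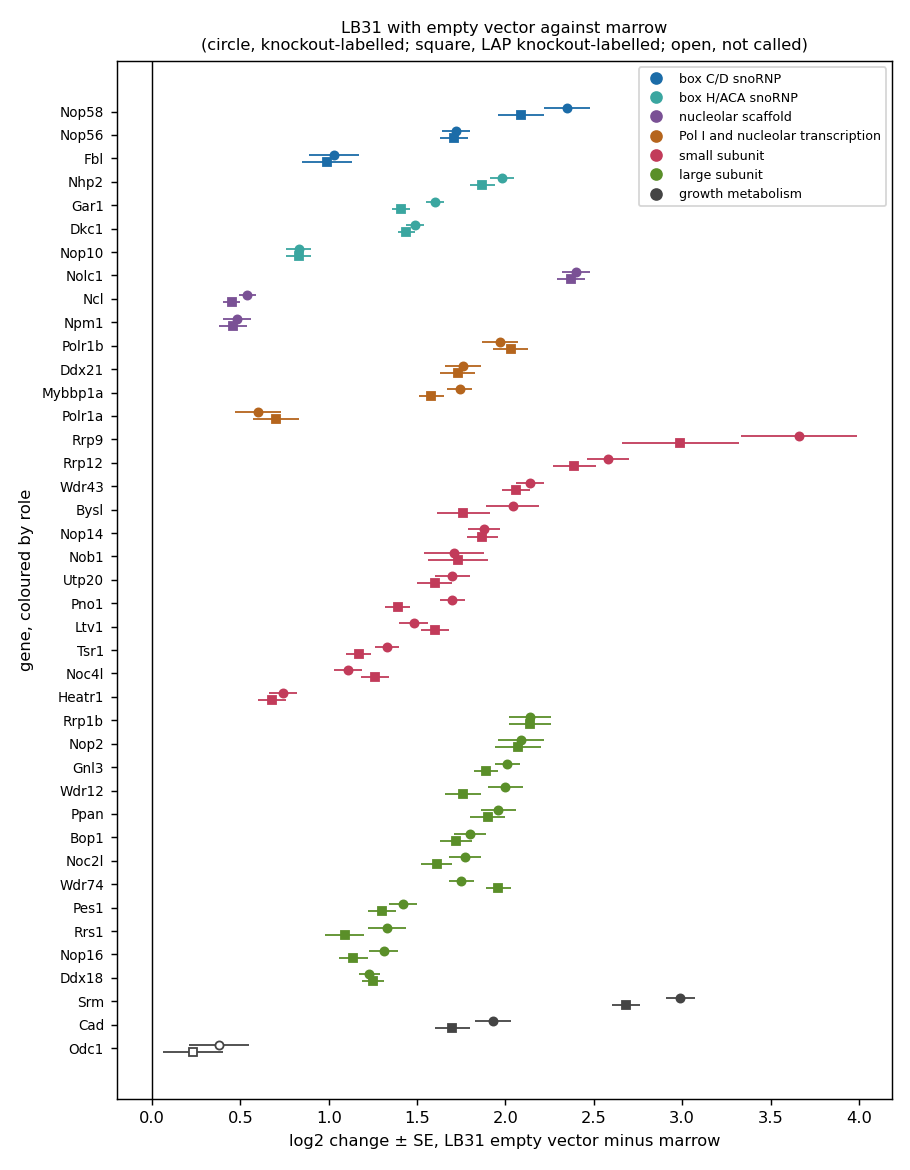
Log2 change ± SE (x axis) of each of the 41 genes (y axis, ordered and coloured by role) in LB31 with the empty vector against knockout-labelled marrow (circles) and LAP knockout-labelled marrow (squares), with filled symbols called at adjusted p under 0.05. All points but the open pair of Odc1 (0.38 and 0.23) are called higher, up to Rrp9 at 3.66 and 2.99, and on the values as deposited Polr1a alone of these changes sign, against knockout-labelled marrow.

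The box C/D snoRNP proteins guide and carry out methylation of ribosomal RNA. Fbl, the methyltransferase fibrillarin, was at 10.62, 10.79 and 11.09 on the 3 knockout-labelled arrays and at 11.59, 12 and 12.01 with the empty vector. The groups did not overlap, as for 32.4% of all genes in that direction, and Fbl rose by 1.03 ± 0.14 (SE, adjusted p = 8.93e-07). Its partners rose further, Nop56 by 1.72 ± 0.08 and Nop58 by 2.35 ± 0.13.

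The box H/ACA snoRNP proteins convert uridine to pseudouridine, and Dkc1 (dyskerin) is their catalytic subunit. Dkc1 was at 10.24, 10.32 and 10.44 in knockout-labelled marrow and at 11.86, 11.83 and 11.80 in the line, a rise of 1.49 ± 0.05. All 4 genes of this complex rose: Nhp2 by 1.98, Gar1 by 1.60 and Nop10, the smallest subunit, by 0.83 ± 0.07.

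Of the nucleolar scaffold and chaperone proteins, the brighter pair had the smallest rises among the called genes. Ncl (nucleolin) was at 12.32, 12.27 and 12.36 in knockout-labelled marrow and at 12.84, 12.84 and 12.87 in the line, a rise of 0.54 ± 0.05. Npm1 (nucleophosmin) was at 12.49, 12.60 and 12.81 against 13.24, 13.02 and 13.09, a rise of 0.48 ± 0.08. Neither pair of groups overlapped, but these probe sets lay near the top of the scale: the deposited signal of Npm1 reached 12744, where the brightest probe set of an array lay at 12802 to 16554. Dimmer probe sets of these genes gave larger rises, 0.91 to 1.53 for the other 4 of Ncl and 1.19 for the other of Npm1. Nolc1, a chaperone of snoRNPs, was at 8.47, 8.52 and 8.50 against 10.89, 10.88 and 10.91, and rose by 2.40 ± 0.08.

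Polr1a and Polr1b encode the catalytic subunits of RNA polymerase I. Polr1b was at 6.72, 6.53 and 6.53 in knockout-labelled marrow and at 8.48, 8.60 and 8.62 in the line, and rose by 1.97 ± 0.10. Polr1a rose by 0.60 ± 0.13 on the probe set used and by 1.13 and 2.46 on 2 others, and on the values as deposited, without normalization, its call was lost and its sign turned. The nucleolar helicase Ddx21 rose by 1.76 and the nucleolar transcription regulator Mybbp1a by 1.74, the latter by 4.09 on a dimmer probe set.

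All 12 small-subunit factors rose. Rrp9, a protein of the snoRNP that starts small-subunit processing, had the largest change of all, from 4.18, 4.97 and 4.41 to 7.95, 8.45 and 8.13. That rise of 3.66 ± 0.33 starts near the filter level of 4.06, and the marrow arrays of Rrp9 scatter most, with SDs up to 0.96 within a group. Rrp12, which helps export and maturation of the subunits, was at 5.64, 5.33 and 5.43 against 8.13, 7.87 and 8.14, a rise of 2.58 ± 0.12 with clear separation of the arrays. Among the processome proteins, Wdr43 rose by 2.14, Nop14 by 1.88, Utp20 by 1.70 and Noc4l by 1.11, and Heatr1 by 0.74. Among the late factors, Bysl rose by 2.04, the endonuclease Nob1 by 1.71, Pno1 by 1.70, Ltv1 by 1.48 and the GTPase-like Tsr1 by 1.33.

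All 12 large-subunit factors rose too, within a narrower range, from 1.23 (Ddx18, a helicase) to 2.14 (Rrp1b). Bop1, a scaffold that works with Pes1 and Wdr12, was at 7.61, 7.61 and 7.38 against 9.28, 9.41 and 9.31, a rise of 1.80 ± 0.09. Its partner Wdr12 rose by 2.00 ± 0.10 and its partner Pes1 by 1.42 ± 0.08. The rRNA methyltransferase Nop2 rose by 2.09, the GTPase nucleostemin (Gnl3) by 2.01, Ppan by 1.96, Noc2l by 1.77, Wdr74 by 1.75, Rrs1 by 1.33 and Nop16 by 1.31.

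The growth-metabolism genes split. Srm, spermidine synthase, was at 8.28, 8.35 and 8.30 in knockout-labelled marrow and at 11.22, 11.33 and 11.35 in the line, a rise of 2.99 ± 0.08 (7.92-fold, adjusted p = 1.13e-17). Cad, which carries out the opening steps of pyrimidine synthesis, was at 7.55, 7.48 and 7.63 against 9.51, 9.37 and 9.56, a rise of 1.93 ± 0.10. Odc1, ornithine decarboxylase, the enzyme upstream of Srm, was at 10.71, 10.94 and 11.30 against 11.67, 11.15 and 11.28: the groups overlapped and the change of 0.38 ± 0.17 was not called (adjusted p = 0.0615). That probe set is of a kind that can hybridise with related sequences, and the other 2 Odc1 probe sets rose by 1.60 ± 0.21 and 1.25 ± 0.19, so the probe sets disagree.

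**Figure D3:**
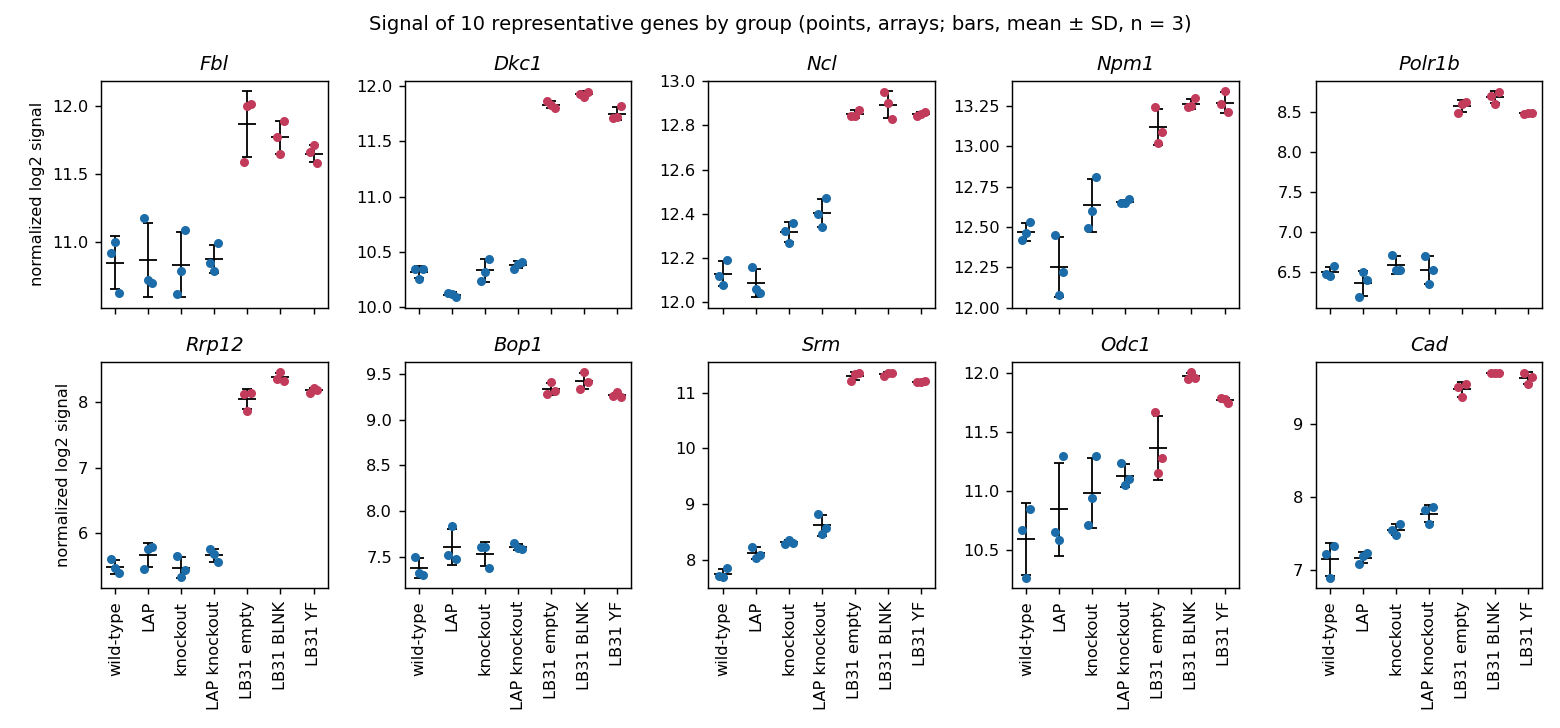
Normalized log2 signal (y axis, own scale for each gene) of 10 genes representing the roles in each of the 7 groups, with points for arrays (blue marrow, red LB31) and bars for mean ± SD (n = 3). For all but Odc1 the 9 LB31 points lie above the 12 marrow points, and Srm climbs within marrow from 7.75 in wild-type to 8.62 in LAP knockout-labelled cells.

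Across the 41 genes, the level in knockout-labelled marrow and the rise in LB31 were inversely related (Pearson r = -0.64, Spearman rho = -0.51, n = 41 genes on the same arrays). The level enters the rise with a minus sign, so this is a description and not a test. Over all probe sets that passed the filter, 76 of 80 were higher against knockout-labelled and 78 of 80 against LAP knockout-labelled marrow, none was lower, and each of the 41 genes had at least 1 higher probe set in each comparison. Of the other probe sets of called genes, 34 of 37 moved the same way against knockout-labelled marrow and 36 of 37 against LAP knockout-labelled marrow, with none called in the opposite direction. In the comparisons within marrow and within LB31 described further on, fewer did so: 0 of 2 for knockout-labelled, 3 of 9 for LAP knockout-labelled against wild-type, 6 of 13 for LAP knockout-labelled against LAP transgenic marrow, 3 of 10 for BLNK against empty vector and 2 of 15 for BLNK against YF, the rest not being called. As deposited, without normalization, 39 and 38 of the 41 were called higher, with 56% and 56.1% of all genes called in either direction. The calls of Polr1a were lost in both and that of Heatr1 was lost against LAP knockout-labelled marrow. Without normalization the median of all genes shifts to -0.42 and -0.46, and the median of the 41 stays above it at 1.34 and 1.23.

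Other genes of the pathway mostly moved in the same direction, with smaller medians. Of 57 further ribosome biogenesis genes tested, 53 were higher and 1 lower against knockout-labelled marrow, and 52 and 1 against LAP knockout-labelled marrow. Against knockout-labelled marrow, the RNA polymerase I machinery had 10 of 12 higher and 1 lower with a median of 0.57, led by Cd3eap, a polymerase I subunit (1.93 ± 0.25). The further small-subunit factors had 23 of 25 higher with a median of 1.05, led by Tbl3 (2.66), and the further large-subunit factors 20 of 20 with a median of 0.95, led by Nle1 (2.66). Nucleotide synthesis genes had 9 of 9 higher with a median of 1.43, led by Gart (1.90), an enzyme of purine synthesis. Of 5 polyamine genes tested besides Srm and Odc1, 4 were lower (Sat1, Smox, Oaz1 and Oaz2) and 1 was higher (Azin1). The largest fall was in Sat1, which acetylates spermidine for breakdown (-2.38 ± 0.10). Amd1 and Sms, also on that list, had no probe set of their own, so polyamine synthesis beyond Srm and Odc1 was not covered. A proliferation list was mixed, with 7 of 13 higher and 3 lower, from Mcm2 at 1.70 to Mki67 at -0.68.

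Myc, the gene whose product many of the 41 are known to respond to, was at 7.22 to 7.88 (group means) in marrow and at 11.48 to 11.62 in LB31, and rose by 3.72 ± 0.16 against knockout-labelled marrow. Mycn rose by 8.11 ± 0.30 there on its brightest probe set, and by 4.63 ± 0.22 and 4.03 ± 0.34 on its other 2. These sizes are loose at both ends, since the 3 were at 4.91, 4.92 and 3.28 in knockout-labelled marrow, near or under the filter level of 4.06, and the brightest reached 13.02 in the line, about the level of Npm1. Of the 9 genes in the list of MYC and its partners, 4 were higher and 4 lower, with Mxd1, a repressor that competes with MYC for MAX, at -2.72 ± 0.37. The 3 Mycn probe sets disagree within LB31: normalized over the 9 LB31 arrays, Mycn on the brightest was at 13.22 on empty-vector arrays against 11.01 on BLNK and 11.56 on YF arrays, a fall of 2.21 ± 0.05 on the log2 scale with BLNK. On the next it fell by 0.22 ± 0.06, and on the dimmest the change of -0.13 ± 0.10 was not called. Myc differed by 0.02 ± 0.04 between BLNK and the empty vector, which was not called. In the same normalization, the mean of the 41 genes was 10.21 to 10.25 on the empty-vector arrays and 10.32 on all 3 BLNK arrays.

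**Figure D4:**
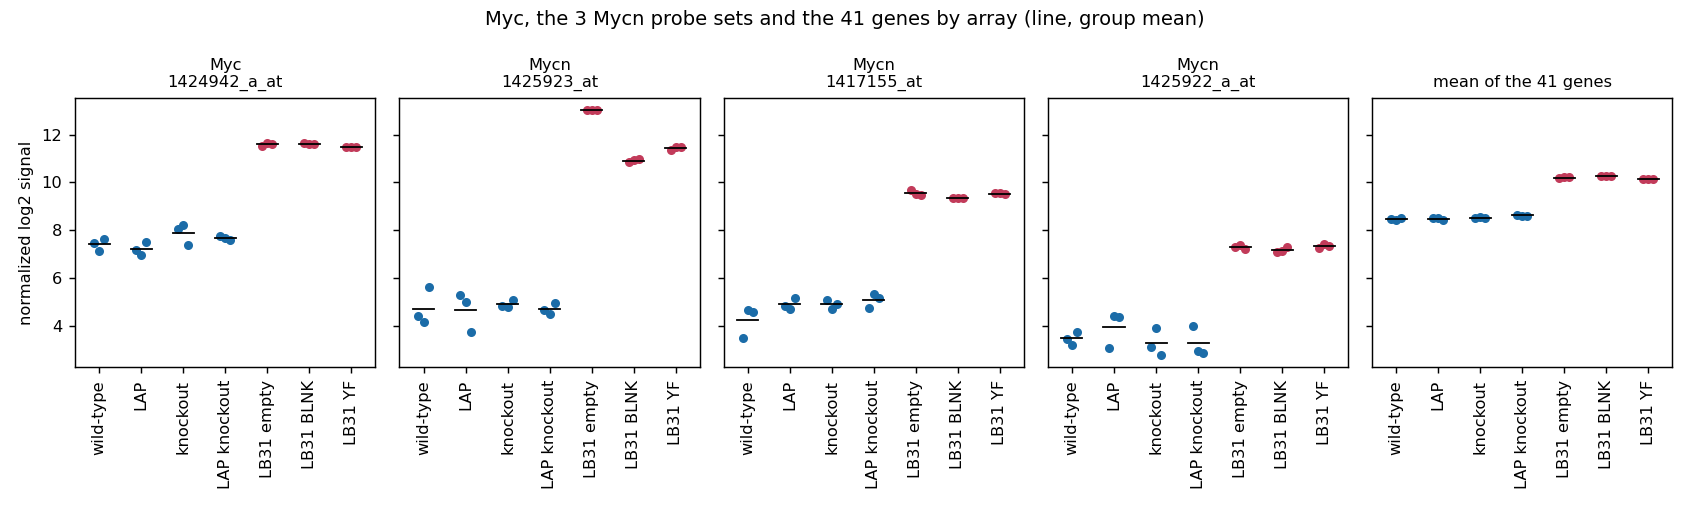
Normalized log2 signal (y axis, shared) of the Myc probe set, the 3 Mycn probe sets and the mean of the 41 genes on each array of the 7 groups (points; blue marrow, red LB31; line, group mean). The first Mycn panel sets the empty vector (13.02) well above BLNK (10.92) and YF (11.45), the other Mycn panels do not, while the mean of the 41 genes lies between 10.15 and 10.28 on all LB31 arrays.

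The sequence around the start of these genes was examined because they moved together and because MYC is known to bind the E-box CACGTG. RefSeq promoters (GRCm38.p6, 250 bases before to 50 after an annotated start of a gene) were at hand for 35 of the 41 genes. Npm1, Fbl, Rrs1, Rrp12, Bop1 and Srm had no entry. CACGTG, which reads the same on both strands, was in 8 of the 35 (22.9%), against 8.1% of 27025 genes with promoters of the same length. The related CACGCG (or CGCGTG) was in 11 (31.4%, against 10.5%), and the Ets core CCGGAAG (or CTTCCGG) in 10 (28.6%, against 9.9%), and a promoter may hold more than 1 of them. These matches describe letters in a window and show no binding. The 41 genes were chosen by name as ribosome biogenesis and MYC growth target genes. The comparison genes were all those with a promoter at hand, not matched for G and C content or for expression. The shares are thus a description and no test of MYC in these data.

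The 8 windows with CACGTG are shown because they allow the E-box and its surroundings to be compared between genes. Each is written 5′ to 3′ on the gene's strand with the E-box in capitals.
Ltv1: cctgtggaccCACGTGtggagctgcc
Mybbp1a: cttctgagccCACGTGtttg
Nop2: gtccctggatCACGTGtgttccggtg
Pes1: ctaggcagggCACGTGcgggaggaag
Pno1: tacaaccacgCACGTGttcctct
Tsr1: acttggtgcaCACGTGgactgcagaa
Utp20: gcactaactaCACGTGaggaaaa
Wdr43: cccgggcgaaCACGTGgctgccgcgg

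On GRCm38.p6 these windows lie at chr10:13193094-13193119 (Ltv1, minus strand), chr11:72441357-72441376 (Mybbp1a, plus), chr6:125131813-125131838 (Nop2, plus) and chr11:3963967-3963992 (Pes1, plus). The others lie at chr11:17211540-17211562 (Pno1, minus), chr11:74898094-74898119 (Tsr1, plus), chr10:88826765-88826787 (Utp20, minus) and chr17:71616222-71616247 (Wdr43, plus). In 7 of the 8 the E-box lies downstream of the start, its first base 3 bases away in Pes1, 18 in Wdr43, 25 in Tsr1, 29 in Ltv1, 38 in Pno1 and Utp20 and 41 in Mybbp1a. Nop2 alone has it upstream, its first base 60 bases before the start. The 250 bases before the start of Nop2, chr6:125131633-125131882 on the plus strand, are shown for that reason, with the E-box in capitals, and 67.6% of them are G or C.
Nop2 upstream: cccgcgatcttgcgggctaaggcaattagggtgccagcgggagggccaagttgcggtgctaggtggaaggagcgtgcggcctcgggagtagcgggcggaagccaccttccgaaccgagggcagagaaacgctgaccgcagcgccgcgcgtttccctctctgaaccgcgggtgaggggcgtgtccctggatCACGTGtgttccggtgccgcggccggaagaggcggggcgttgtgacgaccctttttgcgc

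The medians of genes with and without the E-box lay close together, and no test was made of the difference. Against knockout-labelled marrow, the 8 with CACGTG changed by 1.33 to 2.14 with a median of 1.70, and the 27 without it by 0.38 to 3.66 with a median of 1.76. Against LAP knockout-labelled marrow the medians were 1.59 and 1.73.

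Within marrow, the comparisons asked what the Blnk knockout label and the LAP transgene changed, each alone and together, and between 0 and 16 of the 41 genes were called in any of them. From here marrow levels are those normalized over the 12 marrow arrays. In knockout-labelled against wild-type marrow 4 genes rose (9.76% of the 41, with 8.37% of the 13347 genes tested called higher) and 3 fell (7.32%, with 8.69% called lower). The rises were Srm by 0.55 ± 0.10, Rrs1 by 0.40 ± 0.12, Cad by 0.39 ± 0.12 and Gar1 by 0.27 ± 0.07. The falls were Ppan at -0.56 ± 0.13, Nop14 at -0.40 ± 0.11 and Wdr74 at -0.32 ± 0.08, and the median of the 41 was 0.13 against 0.01 for all genes. The shares are close to those of all genes.

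Srm was at 7.79, 7.77 and 7.92 in wild-type and at 8.35, 8.42 and 8.37 in knockout-labelled marrow, with no overlap (1.47-fold, adjusted p = 0.00205). Over all genes, 17.7% lay wholly above wild-type in this comparison. It was the only 1 of the 7 called under every alternative setting. Rrs1 was at 9.19, 9.48 and 9.12 against 9.60, 9.61 and 9.78, also without overlap. Its probe set is, like that of Odc1, of a kind that can hybridise with related sequences. Cad was at 7.32, 7.01 and 7.43 against 7.64, 7.57 and 7.71, and the gap between the groups was smaller than the spread of the wild-type arrays.

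The large-subunit factor Ppan was at 7.98, 7.96 and 8.08 in wild-type and at 7.37, 7.46 and 7.51 in knockout-labelled marrow, well apart (adjusted p = 0.00826). Nop14 was at 7.52, 7.59 and 7.39 against 6.96, 7.26 and 7.08. Wdr74 was at 8.65, 8.72 and 8.72 against 8.36, 8.33 and 8.45. All 3 kept to separate ranges, as did 18.3% of all genes in that direction, and all 3 calls are lost on the values as deposited.

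The scaling sets the direction of the calls, while the members' median stayed above that of all genes under each scaling tried. As deposited, 20 genes were called higher and none lower in knockout-labelled marrow, where 26.9% of all genes were called. The median of all genes then shifts to 0.30 and that of the 41 to 0.37. With each array centred on its median 1 was higher and 6 lower, with 17.6% of all genes called, and those medians are -0.07 and 0. With trimmed-mean scaling they are 0.04 and 0.10. The median deposited signal was 28.9 ± 1.78 (SD, n = 3) in knockout-labelled marrow and 29.4 ± 1.89 with both labels, against 21.6 ± 2.08 in wild-type and 21.2 ± 0.258 in LAP transgenic marrow. Leaving out 1 array left 3 to 5 genes called: 3 without knockout-labelled array 1, 4 without any 1 of the wild-type arrays or knockout-labelled array 3, and 5, with 2 higher and 3 lower, without knockout-labelled array 2. In those fits 12% to 14.8% of all genes were called. Mature B-cell markers fell (5 of 5, median -1.93), 4 of 6 pre-B markers rose (median 0.96) and 4 of 13 proliferation genes rose in the same comparison, and their part in these changes was not tested.

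The LAP transgene with an intact Blnk label changed no gene of the list at this threshold. Against wild-type marrow none of the 41 was called by limma, with 3.97% of all genes called, 2.1% higher and 1.87% lower, and 9 had an unadjusted p under 0.05, as 20.8% of all genes did. Srm had the smallest adjusted p (0.36 ± 0.10, adjusted p = 0.0641), at 8.30, 8.11 and 8.16, above all 3 wild-type arrays, as 12.8% of all genes were. In a fit of every probe set, 1 of 3 Polr1a probe sets was higher in LAP transgenic marrow, by 0.84 ± 0.15 (adjusted p = 0.011), while the probe set used for the gene gave 0.25 ± 0.13 and the last -0.49 ± 0.45. LAP transgenic array 3, with the high neutrophil markers, had the lowest Nop58 (8.48) and Ppan (7.72) and the highest Odc1 (11.21) of its group.

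With both labels the list split more widely. Against wild-type marrow 10 genes rose (24.4% of the 41, with 16.5% of all genes higher) and 4 fell (9.76%, with 14.7% lower), with a median of 0.18 against 0.04 for all genes. The rises were Srm by 0.84 ± 0.10 (1.79-fold), Rrs1 by 0.62 ± 0.12, Cad by 0.60 ± 0.12, Nop58 by 0.60 ± 0.15, Bysl by 0.53 ± 0.17, Gar1 by 0.45 ± 0.07, Nop16 by 0.33 ± 0.10, Ncl by 0.26 ± 0.06, Gnl3 by 0.26 ± 0.09 and Nhp2 by 0.25 ± 0.09. The falls were Wdr74 at -0.52 ± 0.08, Ppan at -0.51 ± 0.13, Nop14 at -0.39 ± 0.11 and Ltv1 at -0.38 ± 0.10. Rises and falls both include factors of the large and the small subunit.

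Srm reached 8.86, 8.52 and 8.61 in LAP knockout-labelled marrow, where every array was above every wild-type array, as for 26.9% of all genes. Rrs1 reached 10.14, 9.83 and 9.69 and Cad 7.90, 7.73 and 7.94, both clear of wild-type. Wdr74 was at 8.11, 8.29 and 8.15, Ppan at 7.57, 7.53 and 7.39 and Nop14 at 7.08, 7.06 and 7.19. Each was below all wild-type arrays, as 22.3% of all genes were. Of the other representatives Ncl rose, and 6 more did not pass: Fbl differed by 0.03 ± 0.14, Dkc1 by 0.06 ± 0.06, Npm1 by 0.17 ± 0.09, Polr1b by 0.02 ± 0.13, Rrp12 by 0.17 ± 0.16 and Bop1 by 0.22 ± 0.11. Odc1 was at 10.61, 10.22 and 10.79 against 11.15, 10.97 and 11.02, a difference of 0.51 ± 0.19 that was not called either (adjusted p = 0.0576).

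Gar1, Nop58, Rrs1 and Srm were called under every alternative in this comparison, Rrs1 on a probe set of the kind that can hybridise with related sequences. As deposited, 25 genes were higher and none lower, where 41.3% of all genes were called and their median shifts to 0.36. With median centring 5 were higher and 5 lower, with 29.8% of all genes called. Leaving out 1 array gave 9 to 13 calls, with 9 without wild-type array 1 or LAP knockout-labelled array 2. In those fits 25% to 26.9% of all genes were called. In the same comparison 6 of 9 nucleotide synthesis genes rose, with Impdh1, an enzyme of guanine nucleotide synthesis, at 1.87 ± 0.15. Of 57 further ribosome biogenesis genes, 6 rose and 8 fell, from Brix1 and Taf1d at 0.44 to Nol6 at -0.95.

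The cell-type markers moved as well. In LAP knockout-labelled against wild-type marrow 11 of 13 proliferation genes rose (median 0.49), 4 of 6 pre-B markers rose and 1 fell, 5 of 5 mature B markers fell (median -3.91), 4 of 4 megakaryocyte markers rose (median 1.78) and 2 of 8 neutrophil markers rose. The mean level of the mature B list was 10.76 to 10.93 on wild-type and 6.43 to 6.73 on LAP knockout-labelled arrays, and that of the megakaryocyte list 7.59 to 7.68 and 9.03 to 9.74. Their part in the changes of the 41 genes was not tested.

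**Figure D5:**
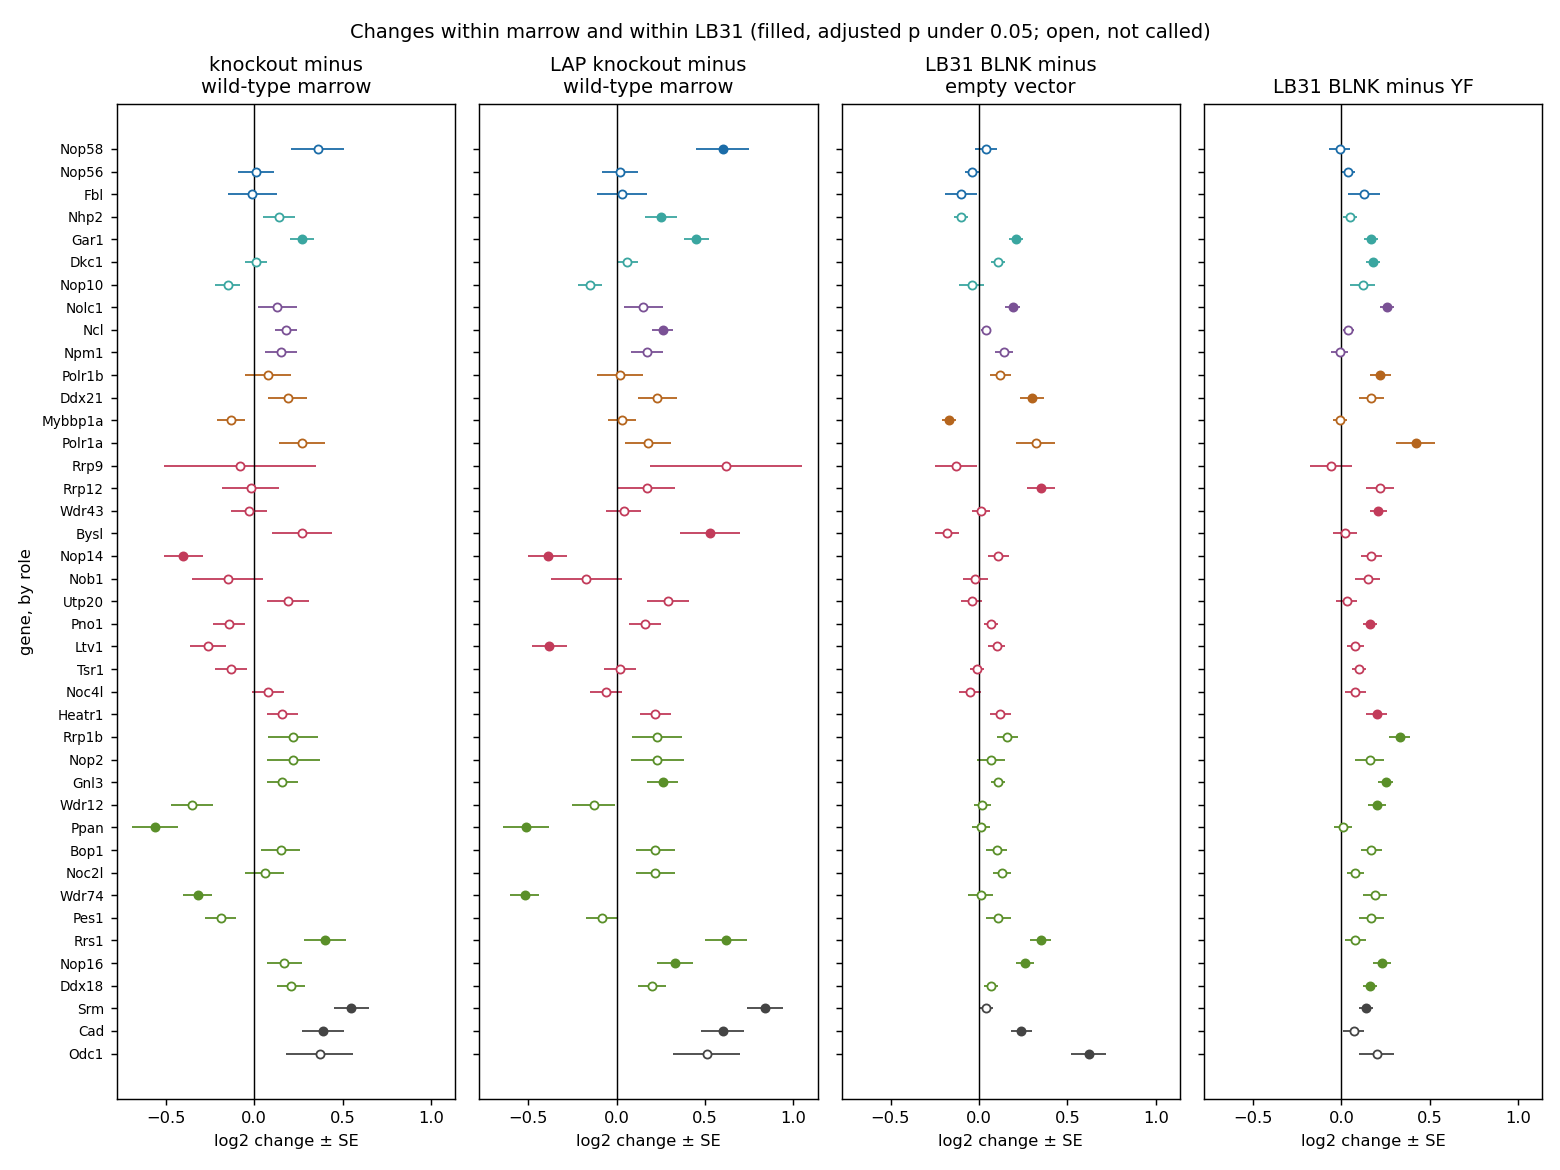
Log2 change ± SE (x axes) of each of the 41 genes (y axis, ordered and coloured by role) in 4 comparisons within marrow and within LB31, filled where adjusted p was under 0.05 and open where not. Rises and falls mix in the 2 marrow panels, with Srm highest (0.55 and 0.84) and Ppan (-0.56) and Wdr74 (-0.52) lowest in turn, whereas most points of the BLNK against YF panel lie right of 0; as deposited, the called falls in the marrow panels are lost and no gene is called in that last panel.

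Against LAP transgenic marrow, LAP knockout-labelled marrow had 12 genes higher (29.3%, with 14.5% of all genes higher) and 4 lower (9.76%, with 12.5% lower). Nop58 was at 9.08, 9.10 and 8.48 in LAP transgenic and at 9.76, 9.48 and 9.45 in LAP knockout-labelled marrow, the largest rise at 0.68 ± 0.15. Cad was at 7.20, 7.30 and 7.34 in LAP transgenic marrow and rose by 0.58 ± 0.12, and Srm rose by 0.48 ± 0.10. The other rises were Rrs1, Npm1, Nop16, Ddx21, Wdr43, Gar1, Ncl, Gnl3 and Dkc1, by 0.26 to 0.43.

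Ppan was at 8.14, 8.27 and 7.72 in LAP transgenic marrow and fell by 0.55 ± 0.13 on the log2 scale. Ltv1, a small-subunit export factor, was at 8.65, 8.58 and 8.75 against 8.35, 8.23 and 8.29 (-0.37 ± 0.10), and Wdr74 at 8.57, 8.52 and 8.45 (-0.33 ± 0.08). None of these ranges overlapped those of LAP knockout-labelled marrow, which lay wholly below for 18% of all genes. Nop10 fell by 0.29 ± 0.07. As deposited, 31 genes were higher and none lower, with 45.2% of all genes called and their median shifted to 0.40. Ltv1, Nop10 and Wdr74 then change sign. In the same comparison 5 of 5 mature B markers fell (median -3.57), 5 of 6 pre-B markers rose (median 1.13), 4 of 4 megakaryocyte markers rose (median 1.15) and 4 of 13 proliferation genes rose. The mean Gapdh ratio was 0.969 in LAP transgenic and 0.859 in LAP knockout-labelled marrow, and the part of these in the changes was not tested.

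Between the 2 knockout-labelled groups, which differ in the transgene, none of the 41 genes was called by limma, with 7.66% of all genes called, 3.31% higher and 4.35% lower. There 4 genes had an unadjusted p under 0.05 (20.3% of all genes did), and the smallest adjusted p was 0.0721 (Pno1). Without knockout-labelled array 3, 1 gene was called, with 10.4% of all genes called. The interaction, which asks whether the transgene acted differently in the 2 backgrounds, called none of the 41 either (0.487% of all genes higher, 1.24% lower), with 5 at an unadjusted p under 0.05 (14.9% of all genes) and a smallest adjusted p of 0.182 (Tsr1). Among all probe sets of the 41 genes, the Polr1a probe set named above was the 1 to pass the interaction test, at -1.19 ± 0.21 (adjusted p = 0.0134).

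Within LB31, the comparisons asked what BLNK, or its mutant, changed in a line made from a Blnk KO mouse. LB31 levels from here are those normalized over the 9 LB31 arrays. With BLNK against the empty vector 8 genes rose (19.5% of the 41, with 7.37% of 13024 genes higher) and 1 fell (2.44%, with 8.58% lower, so 15.9% called), all by less than 2-fold, and the median of the 41 was 0.07 against -0.01 for all genes. The rises were Odc1 by 0.62 ± 0.10, Rrp12 by 0.35 ± 0.08, Rrs1 by 0.35 ± 0.06, Ddx21 by 0.30 ± 0.07, Nop16 by 0.26 ± 0.05, Cad by 0.24 ± 0.06, Gar1 by 0.21 ± 0.04 and Nolc1 by 0.19 ± 0.04. The fall was Mybbp1a at -0.17 ± 0.04, whose sign turned in 2 alternatives.

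Odc1 was at 11.80, 11.26 and 11.39 on the empty-vector arrays, at 12.08, 12.14 and 12.08 on the BLNK arrays and at 11.91, 11.90 and 11.88 on the YF arrays. Both cDNA groups were above all empty-vector arrays, which scattered most. Over all genes 14.3% lay so with BLNK and 7.41% with YF. The other 2 Odc1 probe sets gave smaller changes with BLNK, 0.20 ± 0.15 (not called) and 0.12 ± 0.04 (called). Rrp12 was at 8.03, 7.77 and 8.04 with the empty vector and at 8.28, 8.38 and 8.23 with BLNK. Rrs1 was at 11.22, 11.14 and 10.95 against 11.46, 11.40 and 11.49, and its other probe set gave 0.07 ± 0.04, which was not called.

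Mybbp1a was at 11.36, 11.48 and 11.46 with the empty vector and at 11.19, 11.29 and 11.30 with BLNK. Srm, which had the second largest rise in the line over marrow, was at 11.34, 11.44 and 11.46 against 11.42, 11.47 and 11.46, and differed by 0.04 ± 0.04, which was not called. Fbl (-0.10 ± 0.09), Dkc1 (0.11 ± 0.04), Ncl (0.04 ± 0.03), Npm1 (0.14 ± 0.05), Polr1b (0.12 ± 0.06) and Bop1 (0.10 ± 0.06) did not pass either.

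Empty-vector array 1 and the scaling move how many genes pass. Without empty-vector array 1, 12 genes were higher and 4 lower with BLNK, where 21.9% of all genes were called. Leaving out any other array gave 7 or 8 calls in all, with 11.6% to 12.9% of all genes called. Centred on the array median 21 were higher and none lower (13.9% of all genes called), and as deposited 3 higher and none lower (3.88%). Ddx21, Odc1 and Rrs1 were called in every alternative, Odc1 and Rrs1 on probe sets of a kind that can hybridise with related sequences. Of the 57 further ribosome biogenesis genes 12 rose and 1 fell, led by Ftsj3, a large-subunit factor, at 0.45 ± 0.08. Of 13 proliferation genes 5 rose and 1 fell, and of 9 nucleotide synthesis genes Impdh1 fell by 0.77 ± 0.07 on the log2 scale and 1 rose.

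With the YF mutant against the same empty-vector arrays, none of the 41 genes was called by limma, where 0.322% of all genes were (0.123% higher, 0.2% lower). Here 17 of the 41 had an unadjusted p under 0.05, the median was -0.08, and the smallest adjusted p was that of Odc1 (0.41 ± 0.10, adjusted p = 0.0773). Over all genes 15.4% had an unadjusted p under 0.05. Without empty-vector array 1, 3 genes were higher and 9 lower, where 8.7% of all genes were called. As deposited 3 were higher and none lower, with 4.56% of all genes called. The median of all genes then shifts to 0.32 and that of the 41 to 0.31. With median centring 7 were higher and none lower, with 10.4% of all genes called, and these medians are 0.22 and 0.21.

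BLNK against YF, which share no array, had more genes of the list called than the background. There 14 genes were higher (34.1%, with 3.93% of all genes higher) and none lower (5.11% of all genes, so 9.04% called), 37 of the 41 changes were positive, and the median was 0.16 against 0.02. Each change was small, from 0.14 to 0.42. As deposited and with median centring none of the 41 was called, with 4.24% and 5.2% of all genes called. The median of all genes then shifts to -0.18 and -0.06 and that of the 41 to -0.02 and 0.10. The median of the 41 thus stayed above that of all genes. Leaving out any 1 of the 6 arrays gave 4 to 7 calls, with 6.01% to 6.64% of all genes called. Against the empty vector, the median of the 41 was 0.07 with BLNK and -0.08 with YF. There 30 of the 41 changes were positive with BLNK, and 30 were negative with YF. The difference between BLNK and YF is thus not shown to be a rise with BLNK alone.

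Polr1a was at 7.42, 7.44 and 7.67 with BLNK and at 7.16, 6.98 and 7.12 with YF (0.42 ± 0.11), while its other 2 probe sets, at 0.21 ± 0.11 and -0.07 ± 0.10, were not called. Rrp1b was at 9.40, 9.40 and 9.39 against 9.14, 8.99 and 9.09 (0.33 ± 0.06). Nolc1 was at 11.18, 11.13 and 11.19 against 10.93, 10.84 and 10.94 (0.26 ± 0.04, adjusted p = 0.000807). None of these ranges overlapped, and the BLNK arrays lay wholly above for 16.1% of all genes.

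By role, 2 of 4 polymerase I and nucleolar transcription genes (Polr1a and Polr1b) were higher with BLNK than with YF. So were 2 of 4 box H/ACA genes (Dkc1 and Gar1) and 1 of 3 scaffold genes (Nolc1). Among small-subunit factors 3 of 12 were higher (Wdr43, Heatr1 and Pno1), and among large-subunit factors 5 of 12 (Rrp1b, Gnl3, Nop16, Wdr12 and Ddx18). However, Heatr1, Pno1, Wdr12, Ddx18 and Polr1b changed sign under another scaling or summary. Srm was higher by 0.14 ± 0.04 among the growth-metabolism genes, and none of the 3 box C/D genes was called. Of the 57 further ribosome biogenesis genes 15 were higher and none lower, led by Utp23 at 0.35 ± 0.08, and none of 13 proliferation genes was called. Pre-B markers fell with BLNK (3 of 4 tested against YF, 4 of 4 against the empty vector), and their part in these changes was not tested.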

How the data were processed

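The authors deposited MAS5 probe set signals, an intensity on a linear scale, per the submitters' processing notes, which give no version; no scaling target is named there. Biotinylated cRNA was made from 100 ng of RNA, per the labels. The deposited arrays were not on 1 scale, so log2(signal + 4) was quantile normalized within each fit (12 marrow, 9 LB31 or all 21 arrays), which removes any overall difference in signal. Of 45101 probe sets, 64 were controls; 34945 of the others had 1 symbol, 932 several and 9160 none here. Each gene was given its probe set of highest mean. A gene entered a fit if 3 or more arrays had it above their own 40th percentile. Groups were compared with limma 3.58.1 in R 4.3.3 (lmFit, eBayes with trend, two-sided) without replicate block, checked on simulated data; precision is limited by 3 arrays a group. Alternatives were 3 other scalings, pseudocounts of 1 and 16, no filter or the 60th percentile, the mean of a gene's probe sets, the replicate block and leaving out each array. The 41 genes and all lists were chosen with earlier results of these data known. Per-array values are given for 1 or more fixed representatives of each role and for the up to 3 called genes with the largest rise and fall of each comparison; other genes come from the lists, as the largest called change, or are Myc or markers. Symbols were matched to RefSeq (GRCm38.p6) by Entrez ID for 34741 probe sets.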

Additional observations from a re-analysis of the deposited data

How the results depend on the processing

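Counts are genes of the 41 called. The counts for LB31 against marrow stayed at 38 to 41 higher and 0 lower under every setting (40 to 41 and 40 to 40 when leaving out 1 array). As deposited, the counts were 20 (20 higher, 0 lower) for knockout-labelled, 25 (25, 0) for LAP knockout-labelled against wild-type, 31 (31, 0) for LAP knockout-labelled against LAP transgenic marrow, 3 for BLNK and 3 for YF against the empty vector, and 0 for BLNK against YF. The shares of all genes called were 26.9%, 41.3%, 45.2%, 3.88%, 4.56% and 4.24%, in that order. Median centring gave 7 for knockout-labelled against wild-type, turned to 1 higher and 6 lower, 1 for LAP transgenic against wild-type, 21 for BLNK and 7 for YF against the empty vector and 0 for BLNK against YF. There 17.6%, 4.98%, 13.9%, 10.4% and 5.2% of all genes were called, in that order. Without a filter, knockout-labelled against wild-type had 5, turned to 2 higher and 3 lower, with 11.2% of all genes called. LAP transgenic against wild-type had 1 with trimmed-mean scaling (4.49% of all genes called) and 1 with the filter at the 60th percentile (6.26%). The cause was not tested.

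Leaving out 1 array gave 3 to 5 for knockout-labelled against wild-type (5, turned to 2 higher and 3 lower, without knockout-labelled array 2), 0 to 1 for LAP transgenic against wild-type (1 without LAP transgenic array 1), 9 to 13 for LAP knockout-labelled against wild-type, 0 to 1 against knockout-labelled and 14 to 15 against LAP transgenic marrow. The shares of all genes called were 12% to 14.8%, 1.28% to 4.01%, 25% to 26.9%, 4.06% to 10.4% and 21% to 26.4%, in that order. It gave 7 to 16 for BLNK and 0 to 12 for YF against the empty vector, and 4 to 7 for BLNK against YF. There 11.6% to 21.9%, 0.00779% to 8.7% and 6.01% to 6.64% of all genes were called.

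Between arrays of the same replicate number, deviations from the group means correlated at -0.0979 to 0.266 in marrow (2 of 18 over 0.1). In LB31 they correlated at -0.0369 to 0.0193 (0 of 9). With no comparison to arrays of unlike number, this cannot decide whether the numbers mark pairs. With the replicate block, BLNK against YF had 9 called, knockout-labelled against wild-type 6, BLNK against empty vector 10 and LB31 against knockout-labelled marrow 41; the other 7 counts did not move. Over all settings 138 counts lay within 1.5 times the count reported, whatever their split into higher and lower, 30 lay outside and 3 turned from mostly higher to mostly lower.

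Dim genes limit precision: Rrp9 lay near the filter level in marrow, and Npm1 and Ncl near the top of the scale. With 3 arrays a group, a change that missed the threshold is not shown to be absent.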
